A study of Mus musculus with 6 samples.

Results

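The receptors through which myeloid progenitors read their growth factors were examined for changes in chromatin accessibility. The 8 genes were Csf1r, Csf2ra, Csf2rb, Csf2rb2, Csf3r, Il3ra, Kit and Flt3, and their regions were all called ATAC-seq peaks that overlapped the gene body or the 30 kb on either side of it (mm10, GENCODE M21), merged over the samples. Distances are from the start of each gene's longest coding transcript to the summit. This gave 90 regions of 112852 in the whole data set. ATAC-seq marks open chromatin by inserting adapters with the Tn5 transposase, and a peak is a stretch where insertions pile up above the local background. The cells were L-GMPs, leukemic granulocyte-macrophage progenitors of a mouse leukemia driven by MLL-AF9 that serve as leukemia stem cells (LSCs). They were grown with 20% FBS and 10 ng/ml mouse IL3, and 3 samples were left as controls and 3 were treated with mycophenolate mofetil (MMF), an inhibitor of inosine monophosphate dehydrogenase and thereby of guanine nucleotide synthesis, for 24 h according to the labels. The labels give the genotype of both groups as WT, although all cells carry the retroviral MLL-AF9 fusion, and no dose is given here because the sources differ on dose and time. L-GMPs were identified by surface c-Kit among other markers, so that the product of one of the 8 genes was part of the selection.

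Each of these receptors couples a blood growth factor to survival, division or differentiation. CSF1R binds CSF1 and IL34 and is the receptor of the monocyte and macrophage lineage, and CSF3R binds G-CSF and supports neutrophil production. CSF2RA and IL3RA are the ligand-specific alpha chains for GM-CSF and IL3, and they signal through the common beta chain encoded by Csf2rb. In the mouse a tandem copy, Csf2rb2, encodes a beta chain used by IL3 alone. The copies are close in sequence, so reads from one may have been placed on the other, and values at the Csf2rb and Csf2rb2 exons carry that uncertainty. KIT and FLT3 are receptor tyrosine kinases of the same class as CSF1R, typical of stem and early progenitor cells, and both are known as oncogenes in leukemia.

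The MMF lists were longer than the control lists, with 84538 ± 3163 (SD, n = 3) against 61499 ± 2755 peaks (SD, n = 3), a ratio of 1.37. Whole numbers of reads over each summit were solved from the deposited fold enrichment and p, and they were divided by a factor of 0.825 to 1.33 per sample that sets the median change over shared regions close to 0. These scaled summit reads are the heights given throughout, and changes are log2 of MMF over control with limma's SE and its p adjusted over all regions. A shared region is one with a peak in all 6 lists. Scaling by genome-wide background instead would shift every log2 change by 0.178 toward MMF, and over all shared regions it turned 5659 higher and 4830 lower calls into 8958 and 1271. The labelled cell type was checked at promoters, which show openness and not expression. Of the 9 progenitor markers, 5 had a promoter peak in all 6 lists and Mpo, a granule gene of progenitors, had none in any list. None of the 5 T cell markers had a promoter peak, and of the 5 B cell markers only Cd79b had one, in 2 MMF lists. Summed promoter height of the 9 progenitor markers was 320 to 343 scaled reads in control and 295 to 317 in MMF samples, and that of the 5 erythroid markers 93.7 to 113 and 85.7 to 92.3, both without overlap. The progenitor markers went both ways, with a list without a peak counted as 0. Means were lower with MMF at Cebpa (104 to 74.7), Meis1 (78.9 to 52.3), Hoxa9 (49.8 to 34.4) and Cd34 (11.5 to 8.36). They were higher at Kit (26.7 to 30.1), Fcgr3 (9.29 to 33.5), Fcgr2b (12.6 to 23) and Spi1 (40.1 to 49.7). Klf1 (89.2 to 72.2) made up most of the erythroid sum, and Epor was higher (9.9 to 12.4). The sum over the 8 granulocyte markers was 77.6 to 91.6 in control and 175 to 192 in MMF, and that of the 7 monocyte markers was 60.6 to 65.5 and 68.2 to 96.8. All granulocyte means were higher with MMF, most at Ngp (7.9 to 35.3) and Camp (16.1 to 40.2) and least at Ly6g (4.97 to 5.26). Ltf and Cxcr2 had no control peak. Among monocyte markers Cd14 was lower (13.1 to 11.6), C1qa had no peak, and Ccr2 and C1qb each had a peak in 1 MMF list alone. The other monocyte means were higher. The sums overlapped for the 4 megakaryocyte markers, at 23.2 to 27.3 and 25.8 to 30.7. So did those of the 4 mast cell and basophil markers, at 43.6 to 49.5 and 42.7 to 49.1. The part of these shifts in the results below was not tested, and a change in every cell cannot be told apart from a change in the mixture of cells.

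Accessible sites lay across all 8 loci, and MMF moved some of them in each direction. By position, 31 of the 90 regions had their summit in an intron and 7 in an exon of the nearest receptor gene, 24 lay upstream and 28 downstream, and 9 came within 1000 bp of a transcription start of a receptor gene and are called promoter regions. A peak was present in all 3 MMF lists at 58 regions (64.4%, against 54.5% of all regions) and in all 3 control lists at 43 (47.8% against 38.9%). At 24 regions the peaks came from MMF lists alone (26.7% against 31.3%) and at 5 from control lists alone (5.56% against 7.02%). The excess of regions with MMF peaks alone was thus no larger than over the genome, where the MMF lists were longer. Of the 90 regions 20 rested on 1 list (22.2% against 23.6%). Shared regions numbered 42, or 46.7% against 36.5% of all regions. Of these 42, 6 were higher and 7 were lower with MMF (limma, adjusted p below 0.05), that is 14.3% and 16.7%, against 13.7% higher and 11.7% lower over all 41182 shared regions. The share of higher regions was therefore close to the background. The median log2 change was 0.14 over the 42 regions and -0.01 over all shared regions. With background scaling, the 6 higher regions kept their call and 1 of the 7 lower regions did. With log2 fold enrichment in place of reads, 0 of the 6 and 2 of the 7 kept it, while all 13 kept their direction.

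**Figure D1:**
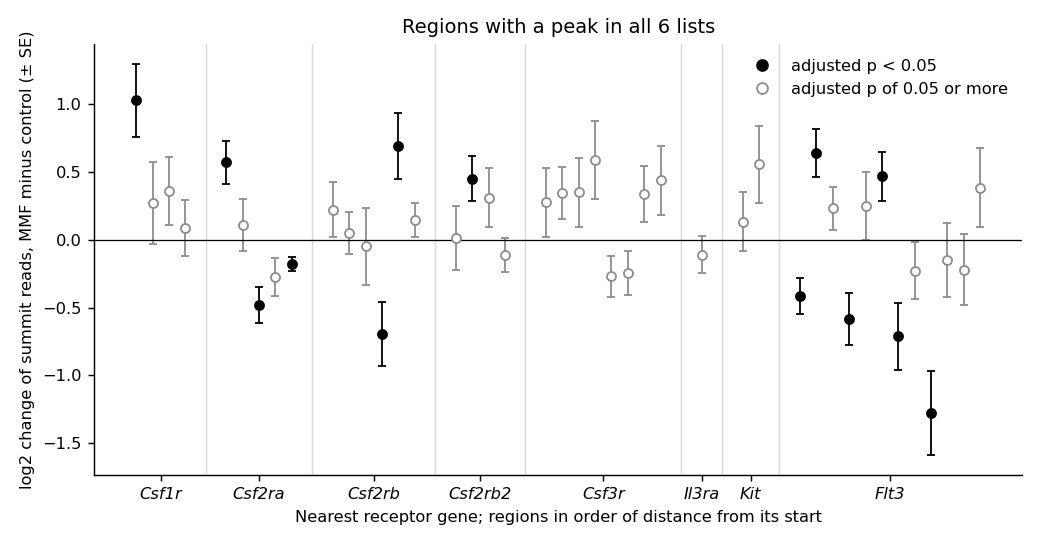
Log2 change of summit reads (MMF minus control, 3 samples each, y axis, with its SE) for the 42 shared regions, grouped by nearest receptor gene and ordered by distance from its start (x axis). Filled points passed an adjusted p of 0.05. The 7 lower ones have Flt3, Csf2ra or Csf2rb as the nearest receptor gene and include the promoter of the neighbour Pan3. The region with the largest fall, at -1.28, lies in a Flt3 intron.

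The promoters of the receptors differed widely in height. In control samples the highest promoter region of Csf2ra had 81.9 ± 3.58, that of Il3ra 65.9 ± 5.81 and that of Csf2rb 49.2 ± 7.23 scaled reads (SD, n = 3). Flt3 followed with 45 ± 4.74, Kit with 26.7 ± 5.5, Csf2rb2 with 22.9 ± 5.84 and Csf3r with 9.28 ± 1.43, while Csf1r lacked a peak in 1 control list. The Csf2ra value is that of a region with its summit in intron 1, which holds the start of a shorter transcript. The region at the main Csf2ra start had 30.8 ± 1.79. Among 13867 protein-coding promoters with a peak, the control levels ran from percentile 76 for Csf2ra to percentile 15 for Csf3r. Of these neighbours, Csf2rb and Flt3 overlapped, as did Kit and Csf2rb2, and the others were separate. In MMF samples the order of the first pair was the other way round, with 61 ± 4.5 for Il3ra and 59.2 ± 9.37 for Csf2ra, which overlapped. The MMF ranges of Csf2ra, Csf2rb, Flt3, Kit and Csf2rb2 each overlapped with the next, and Csf3r stayed lowest at 13.8 ± 1.01. The sequences of 3 promoters are shown because they span the range of base composition. They are the 250 bases before the start, read 5′ to 3′ on the gene's strand from RefSeq (GRCm38.p6), and capitals mark a match to one of the motifs searched.
Il3ra promoter, chr14:14346245-14346494, plus strand: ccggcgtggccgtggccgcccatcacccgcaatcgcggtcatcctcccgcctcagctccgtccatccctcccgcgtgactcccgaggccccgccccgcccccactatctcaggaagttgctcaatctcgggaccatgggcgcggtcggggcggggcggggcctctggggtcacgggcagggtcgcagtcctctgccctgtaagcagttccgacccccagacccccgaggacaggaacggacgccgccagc
Flt3 promoter, chr5:147400490-147400739, minus strand: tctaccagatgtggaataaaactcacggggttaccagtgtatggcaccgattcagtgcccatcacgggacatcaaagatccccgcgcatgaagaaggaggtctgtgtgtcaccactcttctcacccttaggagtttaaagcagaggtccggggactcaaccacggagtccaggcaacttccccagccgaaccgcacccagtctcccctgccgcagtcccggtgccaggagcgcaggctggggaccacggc
Csf2rb2 promoter, chr15:78305722-78305971, minus strand: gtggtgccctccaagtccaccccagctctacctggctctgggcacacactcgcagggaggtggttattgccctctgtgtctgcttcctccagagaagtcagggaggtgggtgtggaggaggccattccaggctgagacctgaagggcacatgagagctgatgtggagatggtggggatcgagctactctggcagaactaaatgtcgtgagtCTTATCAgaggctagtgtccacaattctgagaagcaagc
The Il3ra promoter holds 27 CpG dinucleotides at a GC content of 72.4%, the Flt3 promoter 13 at 59.2% and the Csf2rb2 promoter 3 at 56.4%. The single capital run, in Csf2rb2, matches the GATA consensus, which 10.6% of the 32851 RefSeq promoter sequences of this length also hold.

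**Figure D2:**
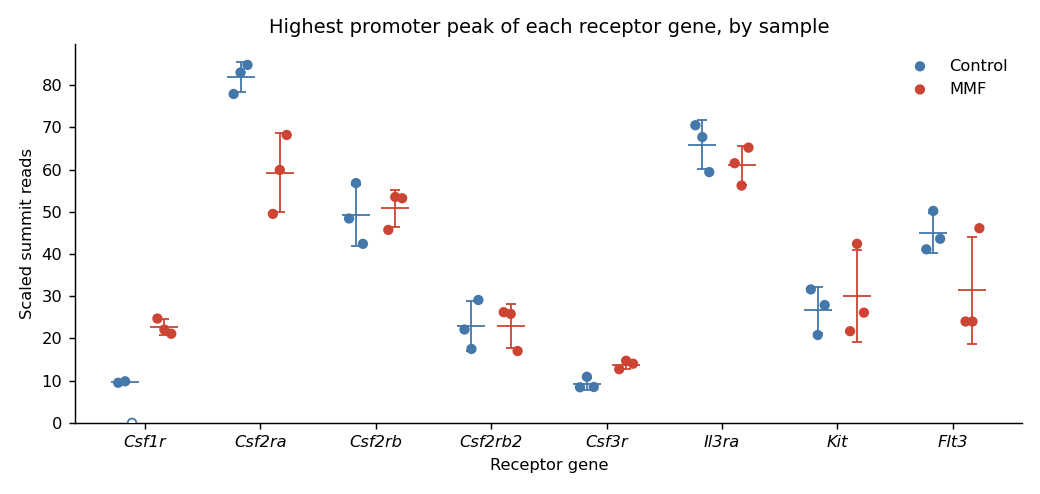
Scaled summit reads (y axis) of the highest promoter peak of each receptor gene (x axis) in the 3 control and 3 MMF samples; bars are the mean and SD over lists with a peak, and the open point at 0 is the list without one. MMF and control points are separate for Csf1r (with or without its open point), Csf2ra and Csf3r. The Csf2ra points are those of the region that holds the start of a shorter transcript. At the main Csf2ra start the groups overlapped. How many of all promoters have separate points was not computed, so these genes cannot be weighed against a background.

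Csf1r (chr18:61100598-61132149), the receptor that defines monocytes and macrophages, had a weak promoter in control cells. The region at the promoter (chr18:61105637-61106128) had 9.48 and 9.83 scaled reads in the first 2 control samples, no peak in the third control list, and 24.7, 22.1 and 21.1 in the MMF samples. Every MMF value was above every control value, with a ratio of means of 2.35 over the lists with a peak. Because 1 list lacked the peak, the region was outside the main test. In a fit chosen after seeing the data, over the 53150 regions with a peak in at least 2 lists of each group and with the third control sample left out at this region, the log2 change was 1.23 ± 0.29 (SE) and the adjusted p was 0.00154. That fit called 12.5% of all regions higher and 8.76% lower. Of the 51 receptor regions in that fit it called 9 higher and 7 lower. A list without a peak is not a height of 0, so leaving it out gives a control level from the lists where the region was called.

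The rest of the Csf1r locus did not move as one. The highest region, in intron 1 at 2.79 kb from the start (chr18:61108306-61109079), had 27.4, 24.0 and 26.7 scaled reads in control and 25.5, 30.4 and 27.1 in MMF samples. These groups overlapped, and the log2 change was 0.09 ± 0.21 (SE, adjusted p = 0.795). At 31.0 kb upstream, inside the neighbouring gene Pdgfrb, a region (chr18:61074688-61074980) had 16.8, 13.1 and 7.27 scaled reads in control and 24.7, 24.0 and 23.1 in MMF samples. It rose by 1.03 ± 0.27 (SE, log2, limma adjusted p = 0.00299), and without the third control sample, the lowest, the change was 0.67 with an adjusted p of 0.0591. The region at 14.6 kb upstream had 17.2 ± 4.61 and 21.6 ± 1.5 scaled reads (SD, n = 3 each, log2 change 0.36, adjusted p = 0.291). Near the end of the gene, in exon 21 at 25.6 kb, which also overlaps Hmgxb3, peaks had 6.32 and 7.65 reads in 2 control samples, none in the third, and 22.5, 18.4 and 16 in MMF samples. This region was singled out after its values were seen, and in the added fit its change was 1.44 ± 0.31 (SE, adjusted p = 0.000592). Within the gene, intron 10 held a region at 14.9 kb with a peak of 10.9 scaled reads in 1 control list and of 15.7, 15.7 and 17 in the MMF lists, and intron 14 one at 21.9 kb with 7.37 in 1 control list and 9.75, 11.1 and 19.1 in the MMF lists. At 4.25 kb upstream, a region of the same kind had 14.5 in 1 control list and 17.2, 14.7 and 11 in the MMF lists, so that its control value lay among them. All 3 lacked too many control peaks to be tested and were likewise singled out afterwards. At 13.7 kb, also in intron 10, the heights overlapped, with 7.37 and 9.69 in 2 control lists and 6.75, 10.1 and 11 in the MMF lists.

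**Figure D3:**
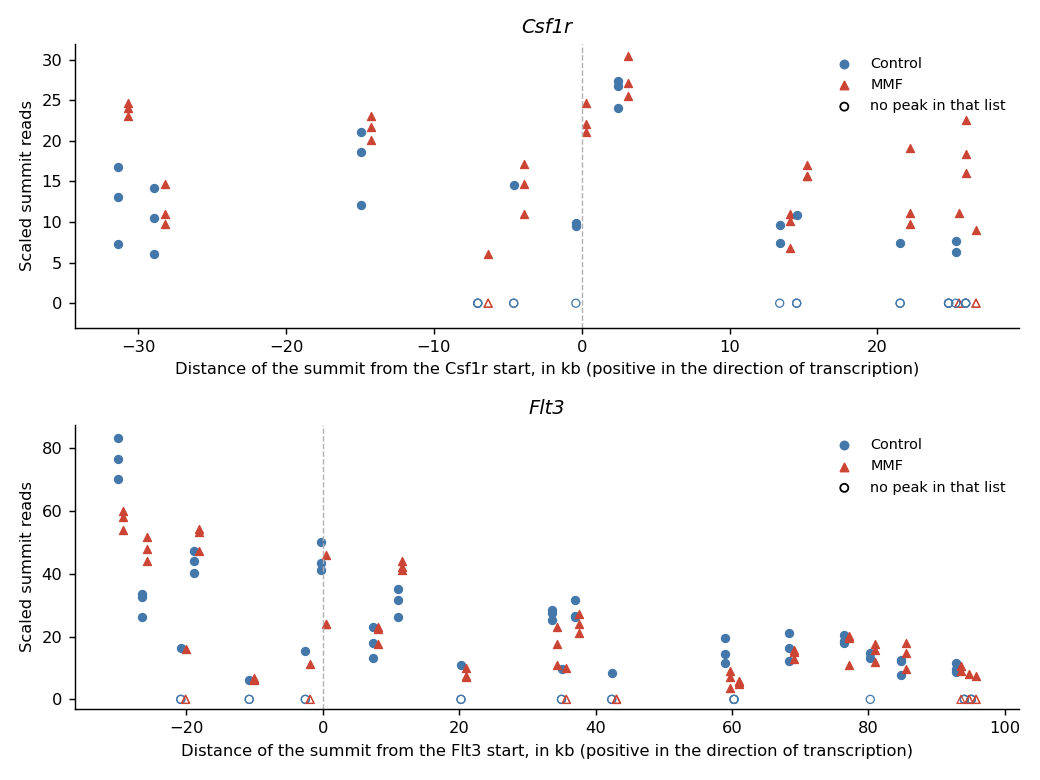
Scaled summit reads (y axis) of every region in the Csf1r and Flt3 windows against the distance of its summit from the gene start in kb (x axis), with 1 symbol per sample, circles for control and triangles for MMF; open symbols at 0 are lists without a peak. At Csf1r the MMF points are above control at the promoter and at -31.0 kb but not at 2.79 kb; at Flt3 they are above control at -26.1 kb and below at 59.3 kb.

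Csf3r (chr4:126024550-126044440), the G-CSF receptor of the neutrophil lineage, showed small positive differences upstream, at its promoter and inside the downstream neighbour Oscp1. None of them passed the test. Its promoter (chr4:126024400-126024868) had 8.42, 10.9 and 8.48 scaled reads in control and 12.7, 14.7 and 14.0 in MMF samples, and the groups did not overlap. The log2 change was 0.59 ± 0.29 (SE) with an adjusted p of 0.121. At 6.70 kb upstream, the highest region not assigned to a neighbour had 27.4, 30.6 and 29.1 against 32.2, 35.0 and 44.1 scaled reads (log2 change 0.34 ± 0.19, adjusted p = 0.174). The 2 highest regions of the window are promoters of the downstream neighbours, Mrps15 with a change of -0.27 and Oscp1 with -0.24, and neither passed. Of the 8 shared regions, which include those at the neighbours, 6 had a higher and 2 a lower mean with MMF, and 0 were called. The higher ones include regions at 40.9 and 43.1 kb inside Oscp1. Their log2 changes were 0.34 and 0.44 (limma adjusted p = 0.228 and 0.199), and only the second had separate groups. One region in intron 4, 6.32 kb from the start, was found in all 3 MMF lists at 6.75, 6.45 and 8.02 scaled reads and in no control list.

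The alpha chain of the GM-CSF receptor, Csf2ra (chr19:61223957-61228429), had changes in both directions within a short distance. The region reaching into intron 1 (chr19:61226990-61228077), which holds the start of a shorter Csf2ra transcript, had 77.9, 83.0 and 84.8 scaled reads in control and 49.5, 59.9 and 68.2 in MMF samples. All MMF samples were below all controls, and it fell by 0.48 on the log2 scale (SE 0.13, adjusted p = 0.00533). Without the first MMF sample the change was -0.35 (adjusted p = 0.0815), and with background scaling it was -0.30 (adjusted p = 0.0952). The region at the far end of the gene, at 4.42 kb, was also lower in every MMF sample, with 65.3 ± 7.4 and 53.8 ± 4.4 scaled reads (SD, n = 3 each), and did not pass (adjusted p = 0.144). The adjacent region at the main start (chr19:61228238-61228615) had 30.8 ± 1.79 and 33.3 ± 4.84 scaled reads (SD, n = 3 each, adjusted p = 0.723). At 16.5 kb upstream (chr19:61244514-61245297) the values were 42.1, 41.5 and 35.1 in control and 61.5, 52.5 and 62.2 in MMF samples, a rise of 0.57 ± 0.16 (SE, adjusted p = 0.00464) that no left-out sample removed. It kept its call with background scaling and with ranks and lost it with fold enrichment (adjusted p = 0.0666) and without a variance trend (adjusted p = 0.05). Its summit is shown because no left-out sample changed the call, with a PU.1 consensus on the reverse strand in capitals.
Csf2ra upstream region, chr19:61244825-61245024, plus strand, 200 bases at the summit: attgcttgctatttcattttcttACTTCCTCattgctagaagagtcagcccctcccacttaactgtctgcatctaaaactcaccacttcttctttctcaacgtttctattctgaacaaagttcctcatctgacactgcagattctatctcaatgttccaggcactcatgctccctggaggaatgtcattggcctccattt
A region 28.7 kb downstream of the start, near the end of the window, stood apart in height, with 1261, 1189 and 1093 unscaled summit reads in control and 1538, 1210 and 1225 in MMF samples and a local background of up to 28.2 reads. After scaling by the median of shared regions all MMF values were below control and it fell by 0.18 on the log2 scale (SE 0.05, adjusted p = 0.0085), but the change was 0.00062 with background scaling (adjusted p = 0.995) and it was -0.14 without the second MMF sample (adjusted p = 0.0794). Next to it, 29.8 kb from the start, a region had no peak in the first control list, 104 and 89.7 scaled reads in the other two and 84, 102 and 92.3 in MMF samples, which overlapped.

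No change passed the test at the promoters of the beta chain genes Csf2rb (chr15:78325752-78353847) and Csf2rb2 (chr15:78282507-78305721). The Csf2rb promoter (chr15:78325598-78326329) had 48.4, 56.8 and 42.4 scaled reads in control and 45.7, 53.5 and 53.2 in MMF samples, and the groups overlapped (log2 change 0.05 ± 0.16, adjusted p = 0.838). The Csf2rb2 promoter (chr15:78305199-78306017) had 22.1, 17.5 and 29.1 against 26.2, 25.8 and 17.0 (log2 change 0.01 ± 0.24, adjusted p = 0.975). Away from the promoters, a pair of regions less than 1 kb apart, downstream of Csf2rb, moved in opposite directions. The first (29.4 kb from the start) had 24.2, 30.6 and 25.4 scaled reads in control and 18.7, 15.7 and 15 in MMF samples and fell by 0.70 (SE 0.24, adjusted p = 0.0224). The second (29.9 kb) had 14.7, 17.5 and 17.0 against 20.2, 25.8 and 35.1 and rose by 0.69 (SE 0.24, adjusted p = 0.027); it was singled out after its values were seen. Both groups of values were separate at each. Leaving out the second MMF sample ended both calls, at adjusted p of 0.0669 and 0.0641, and so did leaving out the third, at 0.0763 and 0.222; without the second control sample the first had 0.0933, and without the first control sample the second had 0.0831. Repeats (soft-masked bases) make up 55% of the first region and 16.2% of the second, and the placement of reads there was not tested. Both summits are shown, with the RUNX consensus of the first (reverse strand) and the PU.1 consensus of the second in capitals.
Csf2rb first downstream region, chr15:78355092-78355291, plus strand: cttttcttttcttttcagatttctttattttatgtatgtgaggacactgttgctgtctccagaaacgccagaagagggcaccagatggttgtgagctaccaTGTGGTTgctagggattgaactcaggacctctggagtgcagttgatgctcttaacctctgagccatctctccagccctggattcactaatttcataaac
Csf2rb second downstream region, chr15:78355599-78355798, plus strand: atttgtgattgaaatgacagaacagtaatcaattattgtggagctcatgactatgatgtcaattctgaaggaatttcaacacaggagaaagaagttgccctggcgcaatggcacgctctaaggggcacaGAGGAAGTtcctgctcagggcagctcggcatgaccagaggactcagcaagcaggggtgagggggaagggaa

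At the Csf2rb2 side, a region 27.2 kb downstream of the start and in no annotated gene (chr15:78278171-78278832), had 39.0, 30.6 and 40.0 scaled reads in control and 42.7, 52.5 and 54.2 in MMF samples. It rose by 0.45 ± 0.17 (SE, adjusted p = 0.0385), and the adjusted p was 0.202 without the second control sample, 0.126 without the second MMF sample and 0.144 without the third. In intron 2 of Csf2rb (chr15:78331540-78331859) a peak was present in all 3 MMF lists at 13.5, 12.9 and 17.0 scaled reads and in no control list. It was the tallest of the 4 regions gained in this way, and the one that stayed gained when every list was cut to its 58496 strongest peaks. The sequences of these 2 regions follow, with a C/EBP and an AP-1 consensus in capitals in the first and no match in the second.
Csf2rb2 downstream region, chr15:78278447-78278646, plus strand: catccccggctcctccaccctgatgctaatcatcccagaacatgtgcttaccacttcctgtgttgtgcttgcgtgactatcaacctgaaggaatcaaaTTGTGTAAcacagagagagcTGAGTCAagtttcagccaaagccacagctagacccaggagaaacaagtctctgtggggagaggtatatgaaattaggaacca
Csf2rb intron 2 region, chr15:78331648-78331847, plus strand: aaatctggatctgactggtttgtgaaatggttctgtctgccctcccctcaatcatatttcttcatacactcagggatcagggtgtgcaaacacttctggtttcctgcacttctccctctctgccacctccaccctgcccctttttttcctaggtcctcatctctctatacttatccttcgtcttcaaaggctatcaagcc
The 2 highest regions of the beta chain windows lie at 47.3 kb from the Csf2rb2 start inside Ncf4, an NADPH oxidase subunit gene, with 80.5 ± 4.18 and 74.6 ± 7.09 scaled reads, and 43.3 kb from the Csf2rb start, with 75.5 ± 7.71 and 83.7 ± 9.96 (SD, n = 3 each). Neither passed the test (adjusted p = 0.543 and 0.412), and nor did the region 4.75 kb upstream of Csf2rb, at 29.4 ± 8.27 and 34.3 ± 9.36.

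Il3ra (chr14:14346275-14356011), whose product binds the IL3 in the culture medium, was open at 1 broad promoter region of 1145 bp (chr14:14345480-14346624). That region has its summit 0.894 kb before the start of the longest coding transcript, inside the annotated gene Gm48860. It had 70.5, 67.7 and 59.4 scaled reads in control and 61.5, 56.2 and 65.2 in MMF samples. The groups overlapped, with a log2 change of -0.11 ± 0.14 (SE, adjusted p = 0.588). The other 2 regions of the window were peaks of 150 bp in introns, each in a single list, at 21.1 scaled reads in 1 control sample and 15 in 1 MMF sample.

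Kit (chr5:75574916-75656722), the stem cell factor receptor and part of the sort, had 2 shared regions. Its promoter (chr5:75574813-75576114) had 31.6, 20.8 and 27.9 scaled reads in control and 21.7, 42.4 and 26.1 in MMF samples, which overlapped (log2 change 0.13 ± 0.22, adjusted p = 0.693). The second MMF sample was the highest, and without it the change was -0.14 (adjusted p = 0.735). A region in intron 1, 14.8 kb from the start, had 11.6, 16.4 and 8.48 against 15.7, 24.9 and 13.0 scaled reads (log2 change 0.56 ± 0.28, adjusted p = 0.139). In intron 7, a region at 49.3 kb was found in 2 control lists and 1 MMF list, and another at 58.5 kb was gained at 6.75, 5.53 and 6.02 scaled reads. Both Kit regions with a peak in every list are thus weak beside the Il3ra promoter and the intron 1 promoter region of Csf2ra. The region at the main Csf2ra start had 30.8 ± 1.79 in control samples (SD, n = 3).

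Flt3 (chr5:147330741-147400489), the receptor of FLT3 ligand on early progenitors, held the most regions and the most calls. Of its 23 regions 12 were shared, and 2 were higher and 4 lower with MMF. Over all shared regions of the data set 13.7% were higher and 11.7% lower. The lower ones include the promoter of the neighbour Pan3. With background scaling that promoter and the intron 9 region described below lost their calls (limma adjusted p = 0.207 and 0.0996). The promoter (chr5:147400118-147400758, at the sequence shown above) had 41.1, 50.2 and 43.6 scaled reads in control and 24.0, 24.0 and 46.1 in MMF samples. It fell by 0.59 (SE 0.19, adjusted p = 0.017) with the third MMF sample inside the control range. Without that sample the change was -0.90 (adjusted p = 0.000939), and without the first or second MMF sample, or the second control sample, the adjusted p was 0.147, 0.137 and 0.0797. With background scaling it was -0.41 (adjusted p = 0.11). Deeper in the gene, a region with its summit in intron 20 (chr5:147340846-147341510) had 11.6, 19.7 and 14.5 scaled reads in control and 9, 3.69 and 7.02 in MMF samples. It fell by 1.28 (SE 0.31, adjusted p = 0.0014), was lower in every MMF sample, and kept its call with background scaling and with each sample left out, but not with fold enrichment (adjusted p = 0.0515) or ranks (0.149). The MMF values rest on 12, 4 and 7 unscaled reads. This region was not tested where a mean of at least 15 reads was required. Nor was it tested where peaks were limited to a −log10 q of at least 2. In intron 9 (chr5:147366109-147366753) the values were 27.4, 28.4 and 25.4 against 23.2, 17.5 and 11.0, a fall by 0.71 (SE 0.24, adjusted p = 0.0235), and without the third MMF sample the change was -0.42 (adjusted p = 0.244). Leaving out the first or the second control sample gave 0.0528 and 0.0638.

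The higher regions of the Flt3 window lay upstream and in intron 1. At 26.1 kb upstream (chr5:147426460-147426750) the heights were 33.7, 26.2 and 32.7 in control and 51.7, 47.9 and 44.1 in MMF samples, a rise of 0.64 ± 0.18 (SE, adjusted p = 0.00448) that held without each sample. In intron 1, 11.3 kb from the start (chr5:147388745-147389459), they were 31.6, 26.2 and 35.1 against 41.2, 44.2 and 42.1, a rise of 0.47 ± 0.18 (SE, adjusted p = 0.0455). This second region was singled out after its values were seen, and its adjusted p was 0.0729 without the first and 0.198 without the second control sample and 0.0914, 0.126 and 0.0905 without each MMF sample in turn. The region 29.7 kb upstream, which is the Pan3 promoter, fell from 83.2, 76.5 and 70.3 to 54.0, 59.9 and 58.2 scaled reads (log2 change -0.42 ± 0.13, adjusted p = 0.0162), with 0.0762 without the first control and 0.0774 without the first MMF sample. The tall region at 18.5 kb upstream had 44.0 ± 3.42 and 51.6 ± 3.82 (SD, n = 3 each, adjusted p = 0.279). The other shared regions of the Flt3 window lay at 7.69 kb in intron 1, 37.3 kb in intron 9, 68.7 kb in intron 23 and, beyond the gene, 76.8 and 85.1 kb. Their groups overlapped, their log2 changes ran from -0.23 to 0.38 and none passed. A weak region at 60.6 kb in intron 20 was gained, at 6, 5.53 and 5.01 scaled reads. The summits of 3 regions with opposite changes are shown, with C/EBP and RUNX matches in intron 1, RUNX and MYB matches in intron 9 and no match upstream.
Flt3 upstream region (higher), chr5:147426517-147426716, plus strand: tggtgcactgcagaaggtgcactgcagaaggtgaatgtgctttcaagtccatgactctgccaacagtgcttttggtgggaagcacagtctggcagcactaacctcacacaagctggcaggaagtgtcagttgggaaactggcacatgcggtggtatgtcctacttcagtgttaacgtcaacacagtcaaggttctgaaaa
Flt3 intron 1 region (higher), chr5:147389074-147389273, plus strand: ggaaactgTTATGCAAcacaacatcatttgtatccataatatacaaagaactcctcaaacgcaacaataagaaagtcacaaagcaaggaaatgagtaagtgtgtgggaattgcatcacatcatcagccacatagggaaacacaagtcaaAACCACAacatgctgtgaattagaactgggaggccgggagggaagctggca
Flt3 intron 9 region (lower), chr5:147366460-147366659, plus strand: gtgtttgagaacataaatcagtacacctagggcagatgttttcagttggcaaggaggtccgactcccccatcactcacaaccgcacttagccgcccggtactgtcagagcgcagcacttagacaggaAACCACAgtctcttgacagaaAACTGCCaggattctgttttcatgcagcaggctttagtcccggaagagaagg

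Presence of a peak was counted next. Regions called in each of the 3 MMF lists but absent from every control list, termed gained, were 4 of 90, in Csf2rb, Csf3r, Kit and Flt3, or 4.44% against 6.0% of all regions. None of the 90 was lost, against 0.182% of all regions. At 3 genes, Csf1r, Csf2rb2 and Csf3r, had more peaks in every MMF list than in every control list, a pattern met in 31.3% of the 19167 protein-coding windows with a peak. Csf1r had 9, 6 and 8 peaks in control and 11, 13 and 12 in MMF samples, a difference of 4.33 (p = 0.1 by a two-sided exact permutation test, which with 3 against 3 samples cannot go lower). Csf2rb2 had 7, 9 and 8 against 11, 10 and 10, and Csf3r had 9, 9 and 8 against 10, 12 and 10 (exact p = 0.1 each). The Csf2rb2 window holds 8 regions that also lie in the Csf2rb window, among them the Csf2rb promoter and its gained intron 2 region. The Csf2rb2 difference was 2.33 here and -0.667 with 10 kb flanks. The exact p was 0.2 for Csf2ra and for Csf2rb, 0.3 for Flt3, 0.6 for Kit and 1 for Il3ra, so the design could not separate the groups at 0.05 at any gene. The longer MMF lists raise such counts everywhere: the median ratio over windows was 1.28, and Csf1r had 1.57. With lists cut to equal length, Csf1r had 7, 6 and 8 against 7, 9 and 9, and none of the 8 genes had every MMF count above every control count, against 4.85% of 18636 windows. In the other direction Flt3 was separate, with 14, 15 and 19 peaks in control and 13, 13 and 12 in MMF samples (exact permutation p = 0.1, the floor for 3 against 3), a pattern found in 4.52% of windows.

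**Figure D4:**
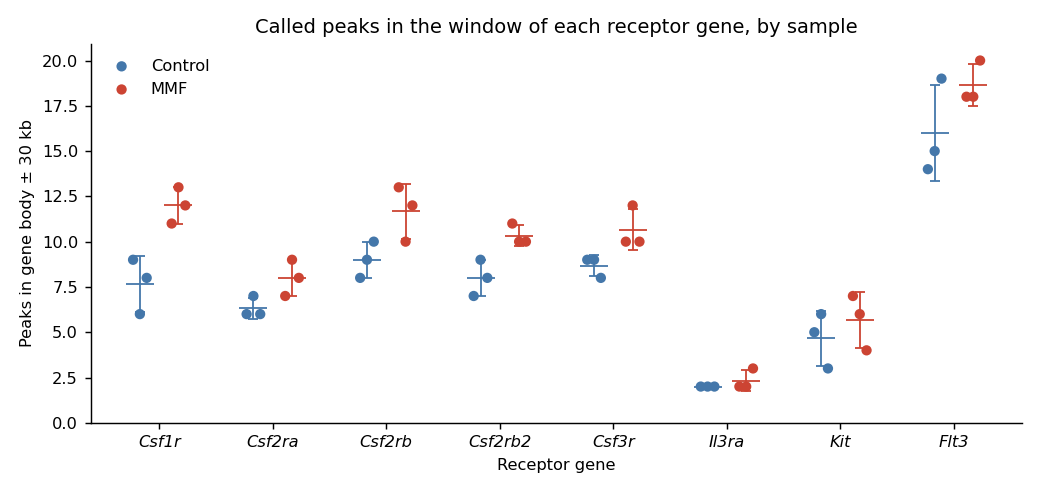
Number of called peaks in the gene body plus 30 kb (y axis) for each receptor gene (x axis) in the 3 control and 3 MMF samples, with the mean and SD. Csf1r, Csf2rb2 and Csf3r have every MMF count above every control count, from lists that are 1.37 times as long with MMF. The Csf2rb and Csf2rb2 windows share 8 regions.

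Averaged over the shared regions of a window, none of the 8 receptor genes passed the test (limma, adjusted over 17281 genes), whereas 9.40% of all genes were higher and 16.9% lower. Without adjustment, 2 of the 8, Csf1r and Csf3r, had a limma p below 0.05, and so did 40.4% of all gene windows. Csf1r had log2 levels of 4.16, 4.09 and 3.45 in control and 4.26, 4.48 and 4.27 in MMF samples, a change of 0.44 ± 0.18 (SE, adjusted p = 0.102) over 4 regions that leave out its promoter. Without the third control sample, which was the lowest, the change was 0.57 and the adjusted p 0.0151. Csf3r had 4.53, 4.54 and 4.51 against 4.77, 4.72 and 4.76, with no overlap (0.23 ± 0.08, adjusted p = 0.0604). The changes were 0.34 ± 0.20 for Kit, 0.16 ± 0.08 for Csf2rb2, 0.05 ± 0.09 for Csf2rb, -0.05 ± 0.07 for Csf2ra, -0.11 ± 0.09 for Il3ra and -0.14 ± 0.09 for Flt3, with adjusted p of 0.168 or more. Under background scaling, which called 3732 windows higher and 477 lower in place of 1624 and 2912, Csf1r (adjusted p = 0.0331), Csf2rb2 (0.0178) and Csf3r (0.00733) passed, and Csf2ra, Il3ra and Flt3 changed sign. Window levels over the 6 samples were also compared after each gene's own mean was taken off, which leaves the pattern and not the height. The 3 genes closest to Csf1r were Olfr229, Col27a1 and Gm11007, at Euclidean distances of 0.205, 0.213 and 0.242 (median of all genes 0.908). None of these windows passed the test.

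The pathway around the receptors was listed as ligands, related receptors, signalling proteins and inhibitors, and all 38 genes had a tested window. In total 4 were higher (10.5%, against 9.40% of all genes) and 3 lower (7.89%, against 16.9%), with a median log2 change of 0.00 against -0.06 over all 17281 genes. Among 7 ligands, 1 was lower, the FLT3 ligand gene Flt3l (-0.27 ± 0.08, adjusted p = 0.0352), and without single samples other than the second control its adjusted p was between 0.0545 and 0.107. None of the 6 related receptors passed. Among 13 signalling genes 2 were higher. Pik3cg, the catalytic subunit of PI3K gamma, rose from 4.15 to 4.88 (0.73 ± 0.09, adjusted p = 0.00198), and Stat3, a transcription factor downstream of G-CSF, rose from 5.05 to 5.47 (0.42 ± 0.07, adjusted p = 0.00494). Among 12 inhibitors 2 were higher and 2 lower. The ubiquitin ligase gene Cblb rose by 0.32 and Spry2, an antagonist of receptor kinase signalling, by 0.28, and the cytokine signalling suppressor Socs1 fell by 0.20 and the adaptor gene Sh2b3 by 0.25 (adjusted p = 0.0406, 0.0316, 0.0484 and 0.0433). The Stat3 call was lost with fold enrichment (adjusted p = 0.0556) and with 10 kb flanks (0.0579). The calls of Cblb, Spry2, Socs1 and Sh2b3 ended when most single samples were left out, and with background scaling Flt3l, Socs1 and Sh2b3 did not pass.

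Consensus motifs were counted in the 200 bp centred on each summit, on both strands. PU.1 (GAGGAAGT) and AP-1 (TGACTCA or TGAGTCA) each matched 9 of the 90 regions, or 10.0%, against 8.26% and 13.2% of all 112852 regions. RUNX (AACCACA) matched 8.89% against 10.7%. C/EBP (TTNNNNAA, where purine and pyrimidine alternate over the unnamed bases, a purine first), GATA (GATAA preceded by A or T and followed by a purine) and MYB (AACNGCC) each matched 6.67%, against 7.88%, 7.58% and 8.65%. ELK1 (CCGGAAGT), whose last 6 letters are those of PU.1, matched 0 of 90 against 1.30%. The Csf2rb and Csf2rb2 promoter summits each held both a PU.1 and a GATA match. A match describes the letters in the window and not a bound factor.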

How the data were processed

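ATAC-seq was measured in 3 control and 3 MMF-treated samples of L-GMPs. Per the labels and the study's methods, the authors trimmed reads with Trim Galore, mapped them to mm10 with Bowtie2 and called peaks with MACS2 on each sample separately; versions and options are not given in the sources used here. In the deposited lists the fold enrichment is a ratio of summit reads to local background, and p and q are −log10 values. The score column of the deposited lists was not used. Lists were limited to chromosomes 1 to 19, X and Y, which left out at most 0.27% of peaks. The main lists had no other filter, so the region of very high signal at 28.7 kb from the Csf2ra start stayed in. No peak ran past the end of a GRCm38 chromosome.

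Summit reads were solved from the deposited fold enrichment, taken as (reads + 1) / (background + 1), and the Poisson −log10 p, and came out whole for 100% of peaks at a relative tolerance of 1e-04. A list's median summit held 14 to 19 reads, which limits the precision of single heights, and total reads per sample are not in the lists. Peaks overlapping by at least 1 bp were merged. Heights of the 41182 shared regions were centred per sample on the median deviation and entered a group-only model in R 4.3.3 with limma 3.58.1 (trended empirical Bayes, no block, two-sided, Benjamini-Hochberg adjustment over all regions or genes, threshold 0.05). The labels do not say whether replicates are separate animals or cultures, so p measures the spread between these samples, which may be technical. Scripts used Python 3.11.15, scipy 1.17.1 and pysam 0.24.0 and were tested on simulated data.

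Named were the 8 genes with their promoter regions, the 10 called regions of smallest adjusted p, the 3 regions per gene with the most reads, gained regions, pathway genes past the threshold and the 3 genes most like Csf1r. The members, lists and tests were chosen with earlier results of these data known. Promoter sequences matched 6 of the 8 genes in RefSeq. Alternatives covered scaling, height measure, filters, list length, variance model, replicate block, left-out samples, windows and motif width.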

Additional observations from a re-analysis of the deposited data

How the results depend on the processing

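Of 42 shared receptor regions, 13 were called. With the replicate block, under which the replicate number of the labels is a term, 13 were called (6 higher, 7 lower) and none of the 8 gene windows, as without it, and the pathway genes went from 4 higher and 3 lower to 2 and 1. Same-numbered samples did not deviate together (r = -0.001, 0.004 and -0.003). Because single heights rest on few reads, these values cannot show whether same-numbered samples share an origin. Background scaling gave 10 higher and 1 lower receptor regions, rank normal scores 5 calls with 1 lower, fold enrichment 2 calls (0 higher, 2 lower) and the fit without a variance trend 4 calls (2 higher, 2 lower). Leaving out 1 sample gave 7 to 14 calls, 3 to 7 higher and 4 to 7 lower, and each of the 13 regions kept its direction. Over all regions the left-out fits called 3973 to 5207 higher and 3077 to 4272 lower, and the fit with the replicate block 5683 and 4858. Over all regions, 3186 were higher and 97 lower with ranks, with fold enrichment 2428 and 850, and without the trend 4116 and 1157 (9.99% and 2.81%). The fit over regions in at least 2 lists of each group was chosen after seeing the data. Called gene windows numbered 3 with background scaling, 1 with a mean of at least 15 reads, 1 with 100 kb flanks and 0 to 1 with a sample left out. Over all windows 1905 were higher and 3013 lower with that mean, and 2483 and 3175 with 100 kb flanks. With a sample left out 960 to 1338 were higher and 1580 to 2333 lower, and with the replicate block 1479 and 2546. With background scaling and with ranks, in that order, log2 changes took the opposite sign for the windows of Csf2ra (0.126, 0.315), Il3ra (0.0671, 0.0252) and Flt3 (0.0428, 0.0775), for the Il3ra promoter (0.0671, 0.0252), the Ncf4 region (0.0659, 0.0261) and the Csf2ra region at 28.7 kb (0.00062, 0.0905). So did, with ranks, the Mrps15 promoter (0.00101) and the Flt3l window (0.0733), and, with fold enrichment, the Csf2rb window (-0.0667) and the Csf1r intron 1 region (-0.128). With a sample left out the Kit promoter ran from -0.141 to 0.341, the Csf2rb2 promoter from -0.177 to 0.221, the Csf2rb promoter from -0.0691 to 0.149 and the Csf2ra window from -0.0939 to 0.00713. Genes with every MMF peak count above every control count numbered 0 at equal list length, where the difference was -0.667 for Kit and -3.33 for Flt3 (every MMF count below control), 5 with 100 kb flanks and 3 to 5 with a sample left out, and Csf2rb2 had -0.667 with 10 kb flanks. For the flank and left-out settings the share over all windows was not computed. Gained regions numbered 1 of 71 at equal list length, against 2020 of 85883 over all regions. With a sample left out they numbered 4 to 8 of 90, against 8318 to 10537 of 112852. Lost regions numbered 0 at equal list length, against 1175 over all regions. With a sample left out they numbered 0 to 1, against 349 to 585. The GATA share was 2.22% in 100 bp and 15.6% in 400 bp, and the MYB share 2.22% in 100 bp. The causes of these shifts were not tested.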
